A study of Mus musculus with 12 samples.

Results

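The genes described are 10 members of the NF-kB pathway in mouse germinal centre B cells. Nfkbia, Nfkbie and Tnfaip3 encode brakes on the pathway, and Rel, Relb and Nfkb2 encode subunits of the transcription factor. Traf1 encodes an adaptor and Birc3 a ubiquitin ligase of receptor signalling and survival. Icam1 and Ebi3 encode an adhesion molecule and a cytokine subunit. The 10 are among the 19938 genes that had a probe set with a single gene symbol. Each was read from that probe set (1 per gene). All 10 were bright enough to be tested, among 11206 genes that were. The question put to them is whether their expression differed between the zones of the germinal centre and between cells of high and low affinity.

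Germinal centres are sites in lymphoid organs where B cells divide and mutate their antigen receptors in a dark zone (DZ) and are selected on antigen and T cell help in a light zone (LZ). The cells were SwHEL B cells, whose receptor recognises hen egg lysozyme, marked by CD45.1 and transferred into C57BL/6J hosts carrying CD45.2. The antigen was HEL3x, a mutant of the lysozyme, carried on sheep red blood cells and given to all hosts, and all samples were female spleen taken on day 10. From IgG1+, CD38 low donor cells, 4 groups of 3 arrays were made: LZ_high and LZ_low (CD86 high, CXCR4 low, of high and of low affinity), and DZ_high and DZ_low (CXCR4 high, CD86 low, of high and of low affinity). The labels state neither how affinity was gated nor the age of the mice, and nothing in them says that replicates are different animals. A p-value here therefore rests on sample-to-sample spread that may be technical. Each group had 1 array from each of 3 matched sets, named by a suffix that samples of different groups share, and replicate numbers below are those of the sets.

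NF-kB is a family of dimeric transcription factors held in the cytoplasm by inhibitor (IkB) proteins or by the unprocessed p100 protein. Signals from the antigen receptor, CD40 or the BAFF receptor lead to breakdown of the inhibitors, and the freed dimers enter the nucleus and bind short kappaB sequences near their targets. Several targets are themselves inhibitors or subunits, so that the pathway feeds back on itself. In germinal centres NF-kB activity is known mainly from light zone cells that receive CD40 and antigen receptor signals.

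To show where such kappaB sequences lie near these genes, promoters were taken from RefSeq's annotation of GRCm38.p6, in windows of 300 bases of which 250 precede the gene's start. Of the 10 genes, 9 had a window (12 windows in all). The kappaB consensus GGGRNNYYCC (R is A or G, Y is C or T, N is any base) was looked for on both strands, with overlapping matches allowed. It was present in 8 of the 12 windows (66.7%), against 8.46% of all 32851 windows, and in 6 of the 9 genes, against 12.2% of the 8970 tested genes with a window. All windows of Nfkb2 are among the 8, and those that overlap each other share a match. The 10 genes were picked as NF-kB subunits and feedback targets, so the higher share is a description and not a test. The windows of Traf1, Birc3 and Icam1 held no match to these letters. The stretches below are shown because they hold the matches of these 6 genes that lie before the gene's start, and are written 5' to 3' on the gene's strand with the matching bases in capitals. For Tnfaip3 and Nfkb2, which had several windows, 1 is shown. A match is a description of the sequence and not a measured binding site.
Nfkbia, chr12:55492648-55492696, minus strand: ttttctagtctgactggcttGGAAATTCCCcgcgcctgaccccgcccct
Nfkbie, chr17:45555574-45555623, plus strand: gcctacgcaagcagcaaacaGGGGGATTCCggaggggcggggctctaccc
Tnfaip3, chr10:19015411-19015555, minus strand: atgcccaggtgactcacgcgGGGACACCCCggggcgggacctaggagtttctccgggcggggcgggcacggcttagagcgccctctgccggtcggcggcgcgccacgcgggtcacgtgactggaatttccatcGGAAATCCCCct
Rel, chr11:23771031-23771081, minus strand: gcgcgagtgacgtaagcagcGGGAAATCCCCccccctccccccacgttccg
Nfkb2, chr19:46304678-46304736, plus strand: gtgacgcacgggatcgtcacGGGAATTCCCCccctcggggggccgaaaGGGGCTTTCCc
Ebi3, chr17:55952559-55952608, plus strand: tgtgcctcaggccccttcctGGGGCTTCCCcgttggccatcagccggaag

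In Nfkbia the match ran from base -29 to -20, counted back from the gene's start, and in Nfkbie from -106 to -97. Tnfaip3 had matches at -125 to -116 and at -12 to -3. In Rel, overlapping matches covered -92 to -82. Nfkb2 had overlapping matches from -39 to -29 and a further one at -11 to -2, and its other windows, which overlap each other, share a match and hold 1 more. Ebi3 had the match shown at -44 to -35 and another at 15 to 24, after the start.

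Values are the authors' log2 expression values, so that a difference of 1 is a doubling of the array signal. Each probe set has its own brightness, so levels are set only against the same gene on other arrays. Differences are from a limma fit over all 12 arrays and 11206 genes, given with their standard error (SE), and a gene is called where its Benjamini-Hochberg adjusted p over all tested genes is below 0.05. Array medians lay between 5.57 and 5.72. On the first principal component (40.1% of the variance) matched set 3 was separate from the others, with scores from 12.5 to 52.9 in set 3 against -26.4 to -6.71 in the other sets, and LZ_high replicate 3 correlated least with the other arrays (mean r = 0.963). Markers of B and germinal centre B cells (9 of 12 had a probe set of their own, and all 9 were tested) had a mean level between 10.06 and 10.29 on every array. Light zone markers averaged 8.93 to 9.66 on LZ arrays and 7.64 to 8.45 on DZ arrays, and dark zone markers 9.26 to 9.50 on LZ arrays and 9.98 to 10.27 on DZ arrays; both lists include genes of the sort itself.

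Between the zones, every one of the 10 genes had a higher mean in LZ than in DZ cells, by 0.13 (Traf1) to 0.95 (Nfkbia) with a median of 0.48, against a median of -0.00383 over all tested genes, of which 49% were positive. Nfkbia was the called member. Across the tested genes 0.419% were called in either direction and 0.232% higher in LZ cells. With the replicate block, Nfkbia and Birc3 were called, against 1.2% of all genes. An unadjusted p below 0.05 was reached by 6 of the 10, against 7.06% of all tested genes. The members were chosen with earlier results of these data known, so such shares are a description and not a test of the list. In these bulk samples, fewer cells expressing a gene and less RNA per cell cannot be told apart.

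**Figure D1:**
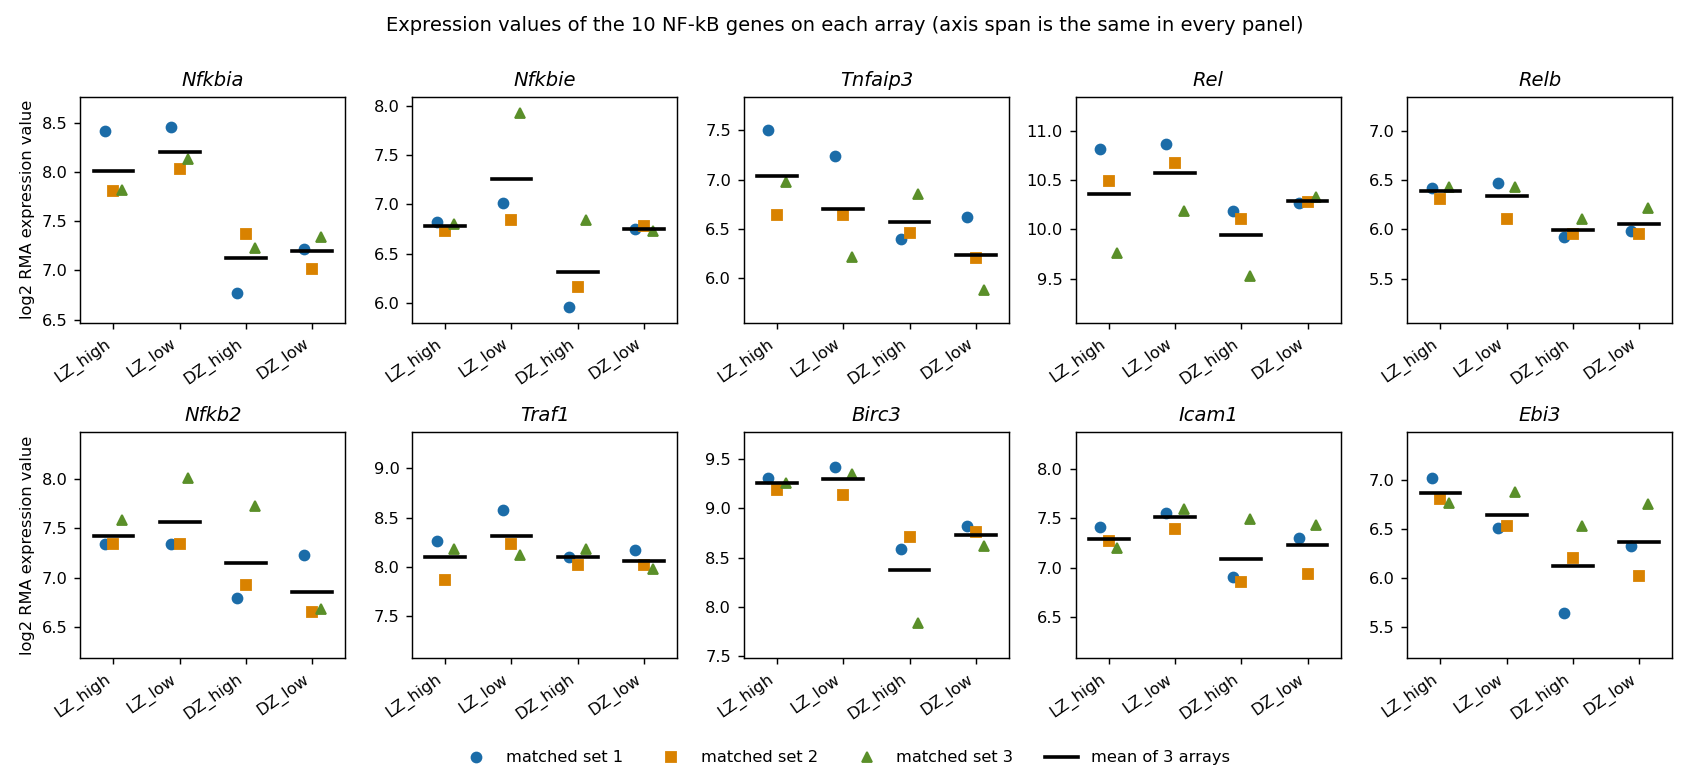
Log2 RMA expression value of each of the 10 NF-kB genes (1 panel a gene) on the 12 arrays, by group, with the mean of 3 arrays as a bar and the matched set as the symbol; every panel spans the same range. For Nfkbia and Birc3 all LZ arrays lie above all DZ arrays, while for Traf1 the zones overlap.

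Nfkbia encodes IkB-alpha, the inhibitor that NF-kB itself induces and that carries the dimers back out of the nucleus. It stood at 8.41, 7.80 and 7.81 in LZ_high cells (replicates 1, 2 and 3 here and below) and at 8.45, 8.03 and 8.13 in LZ_low cells, against 6.77, 7.36 and 7.23 in DZ_high cells and 7.22, 7.02 and 7.34 in DZ_low cells. The lowest LZ array was above the highest DZ array. The LZ minus DZ difference was 0.95 ± 0.15 (SE, 95% interval 0.61 to 1.29, 1.93-fold; limma adjusted p = 0.0278), and LZ was higher in 6 of 6 matched pairs. The call was lost in 10 of the 12 fits without 1 array (adjusted p between 0.0265 and 0.0925 over the 12), all but those without LZ_high replicate 3 or DZ_high replicate 2, and with each array centred on its median (0.0636); the difference itself stayed between 0.85 and 1.01 over those 12 fits. It was 1.08 (adjusted p = 0.0352) without matched set 3.

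Nfkbie encodes IkB-epsilon, a second inhibitor that retains c-Rel and RelA dimers. Its values were 6.83, 6.73 and 6.80 in LZ_high cells and 7.02, 6.84 and 7.93 in LZ_low cells, against 5.96, 6.16 and 6.84 in DZ_high cells and 6.75, 6.78 and 6.73 in DZ_low cells. The zones overlapped, LZ_low replicate 3 stood well above all other arrays, and DZ_high replicates 1 and 2 stood below them. The zone difference of 0.49 ± 0.20 did not pass (adjusted p = 0.607; 5 of 6 pairs higher in LZ).

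Tnfaip3 encodes A20, an enzyme that edits ubiquitin chains and shuts off signalling to the IkB kinase. It had 7.51, 6.64 and 6.97 in LZ_high cells and 7.24, 6.64 and 6.22 in LZ_low cells, against 6.40, 6.46 and 6.85 in DZ_high cells and 6.62, 6.20 and 5.88 in DZ_low cells. LZ was higher in 6 of 6 pairs, yet the zones overlapped: LZ_low replicate 3 (6.22) lay below DZ_high replicate 3 (6.85). The difference was 0.47 ± 0.21 (adjusted p = 0.704).

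Rel encodes c-Rel, the subunit needed for B cell proliferation and for germinal centre maintenance. Its values were 10.82, 10.49 and 9.76 in LZ_high cells and 10.87, 10.67 and 10.19 in LZ_low cells, against 10.19, 10.11 and 9.53 in DZ_high cells and 10.27, 10.28 and 10.33 in DZ_low cells. In every group but DZ_low the array of matched set 3 was the lowest, and the zones overlapped. The difference of 0.35 ± 0.20 did not pass (adjusted p = 0.877; 5 of 6 pairs).

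Relb encodes RelB, the partner of p52 in the slower arm of the pathway that CD40 and the BAFF receptor switch on. It had 6.42, 6.30 and 6.43 in LZ_high cells and 6.47, 6.10 and 6.43 in LZ_low cells, against 5.92, 5.95 and 6.10 in DZ_high cells and 5.98, 5.95 and 6.22 in DZ_low cells. Apart from LZ_low replicate 2, every LZ array was above every DZ array. The difference was 0.34 ± 0.11, with the smallest SE of the 10 genes, and 6 of 6 pairs were higher in LZ (adjusted p = 0.328).

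Nfkb2 encodes p100, which is an inhibitor until it is cut to the p52 subunit. Its values were 7.34, 7.34 and 7.59 in LZ_high cells and 7.34, 7.34 and 8.01 in LZ_low cells, against 6.79, 6.93 and 7.73 in DZ_high cells and 7.23, 6.65 and 6.68 in DZ_low cells. The deposited value was the same to its last digit, 7.3439, on the 4 LZ arrays of sets 1 and 2. Such a tie over at least 4 arrays occurred in 254 tested genes (2.27%), and the spread within those LZ groups is to that extent not a measured one. The difference was 0.50 ± 0.19 (adjusted p = 0.573), with LZ higher in 5 of 6 pairs.

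Birc3 encodes cIAP2, a ubiquitin ligase that protects cells from death receptor killing and acts in TRAF complexes. It had 9.31, 9.19 and 9.26 in LZ_high cells and 9.42, 9.14 and 9.35 in LZ_low cells, against 8.59, 8.71 and 7.83 in DZ_high cells and 8.83, 8.76 and 8.62 in DZ_low cells. All 6 LZ arrays were above all 6 DZ arrays, with DZ_high replicate 3 lowest by far. The difference was 0.72 ± 0.15 (95% interval 0.40 to 1.05, 1.65-fold). It missed the threshold (limma adjusted p = 0.0754) and passed with the replicate block (0.0405), but not with the block and without matched set 3 (0.54, adjusted p = 0.102). Without DZ_high replicate 3 the difference was 0.59 (adjusted p = 0.0557). Of the 10 genes 2, Nfkbia and Birc3, had zones that did not overlap with LZ higher, against 0.535% of all tested genes.

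Traf1 encodes an adaptor of TNF receptor family signalling that NF-kB induces. Its values were 8.26, 7.86 and 8.18 in LZ_high cells and 8.57, 8.23 and 8.12 in LZ_low cells, against 8.10, 8.02 and 8.18 in DZ_high cells and 8.17, 8.02 and 7.98 in DZ_low cells. The zones overlapped throughout, with LZ_low replicate 1 highest and LZ_high replicate 2 lowest. The difference was 0.13 ± 0.12 (adjusted p = 0.999; 95% interval -0.13 to 0.38), the smallest of the 10 genes.

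Icam1 encodes the ligand of the integrin LFA-1 through which B cells hold on to T cells. It had 7.41, 7.27 and 7.20 in LZ_high cells and 7.56, 7.39 and 7.60 in LZ_low cells, against 6.91, 6.86 and 7.50 in DZ_high cells and 7.30, 6.94 and 7.44 in DZ_low cells. The DZ arrays of set 3 were at LZ levels, and the zones overlapped. The difference was 0.25 ± 0.14 (adjusted p = 0.877; 5 of 6 pairs).

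Ebi3 encodes the beta subunit of the cytokines IL-27 and IL-35. Its values were 7.02, 6.81 and 6.76 in LZ_high cells and 6.51, 6.53 and 6.88 in LZ_low cells, against 5.65, 6.21 and 6.53 in DZ_high cells and 6.32, 6.02 and 6.75 in DZ_low cells. LZ was higher in 6 of 6 pairs, but the DZ arrays of set 3 reached LZ_low levels. The difference was 0.50 ± 0.17 (adjusted p = 0.424). LZ was higher in 6 of 6 pairs for 5 of the 10 genes (Nfkbia, Tnfaip3, Relb, Birc3 and Ebi3), against 4.54% of tested genes.

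**Figure D2:**
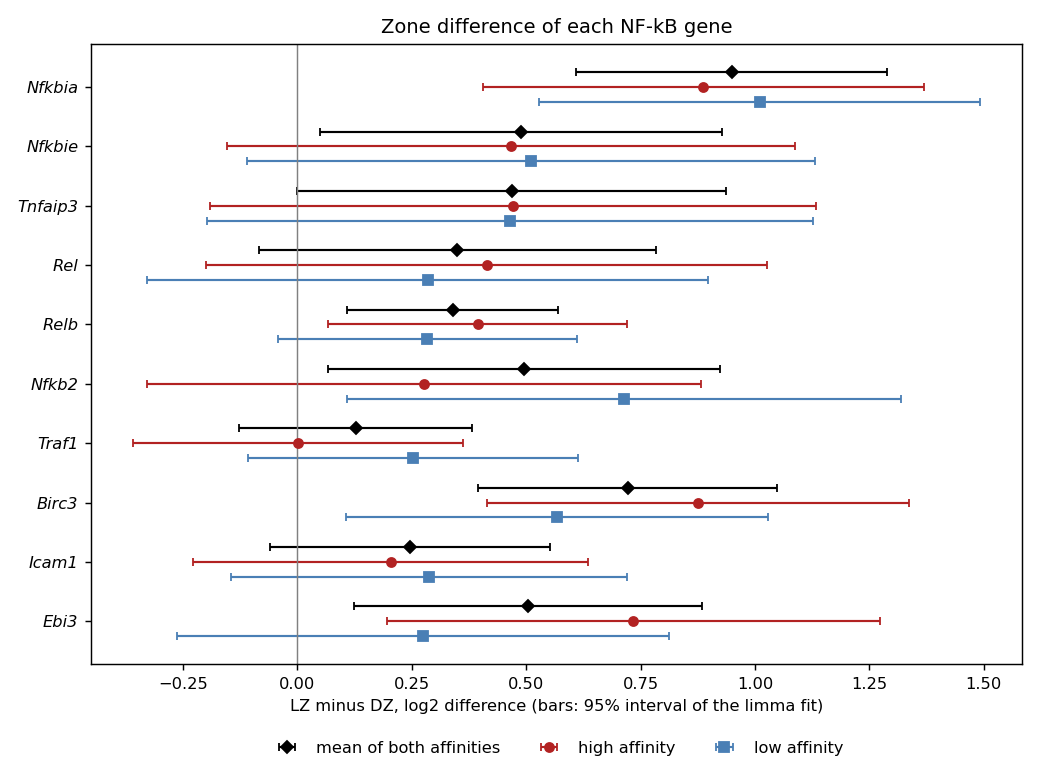
LZ minus DZ difference (log2, x axis) of each gene from the limma fit, as the mean of both affinities and within each affinity, with 95% intervals. All estimates lie at or right of 0, and the interval of the mean excludes 0 for 6 genes, of which Nfkbia passed after adjustment over all tested genes.

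Signs of the sort's purity and of handling were read beside this zone difference. Of 5 plasma cell markers 3 could be tested and all 3 were lower in LZ (median -0.34), with means of 6.46 to 6.93 on LZ arrays and 6.76 to 7.39 on DZ arrays. Among them Jchain, which encodes the joining chain of secreted antibody, fell by 0.97 (-0.97 ± 0.17, limma adjusted p = 0.0427, 0.00753 with the replicate block). Macrophage markers averaged 4.85 to 5.57 on LZ arrays and 5.08 to 5.24 (DZ_high) or 4.91 to 5.14 (DZ_low) on DZ arrays. Of that list 4 of 10 could be tested and all 4 were higher in LZ (median 0.13, 0 called). Over all 10, tested or not, the median was 0.006. At high affinity 2 of the 4 were higher in LZ, and at low affinity 3. The lysosomal protein gene Cd68 had 0.65 ± 0.18 (unadjusted p = 0.00406, adjusted p = 0.234 by limma). Adgre1, Csf1r, C1qc, Mertk, Vcam1 and Cd14 were too dim. Granulocyte markers averaged 5.25 to 7.01 on LZ arrays and 5.33 to 7.11 on DZ arrays. Of the 6 tested, 0 were higher in LZ at high affinity (median -0.43) and 5 at low affinity (median 0.54), with 0 called. Of 8 dendritic cell markers 2 could be tested and Itgax was too dim, and of 7 T cell markers 3 could be tested and Cd3d and Cd3g were too dim. The T cell mean ranged from 4.77 to 6.32 on LZ arrays, with LZ_low holding the highest, and from 4.95 to 5.61 on DZ arrays. A list of genes induced by tissue dissociation averaged 6.79 to 7.40 on LZ arrays and 6.65 to 6.98 on DZ arrays; 8 of its 9 tested members were higher in LZ (median 0.19), 0 were called, 3 had an unadjusted p below 0.05, and 1, Egr1 (1.11, adjusted p = 0.207), was called with the replicate block (0.0124). This list shares Nr4a1 with the light zone markers and Junb with the other known targets read below. The member lower in LZ was Atf3 (-0.39, adjusted p = 0.29). The part of these genes in the result was not tested.

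Within each affinity, the zone difference of the 10 genes was positive for every gene. In high-affinity cells the median was 0.44, from 0.0023 (Traf1, which turned to -0.02282 with a new quantile normalization) to 0.89 (Nfkbia). In low-affinity cells it was 0.38, from 0.25 (Traf1) to 1.01 (Nfkbia). Of the 10 genes 0 were called at either affinity by limma, where 0.0357% of all tested genes were called at high and 0.0357% at low affinity; an unadjusted p below 0.05 was reached by 4 and 3 of them, against 4.53% and 4.69% of tested genes. With 3 arrays against 3, the LZ_high arrays lay above the DZ_high arrays for Nfkbia, Relb, Birc3 and Ebi3, against 3.72% of tested genes, and the LZ_low arrays lay above the DZ_low arrays for Nfkbia, Nfkbie, Nfkb2 and Birc3, against 5.41%.

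Nfkbia differed by 0.89 ± 0.22 at high and 1.01 ± 0.22 at low affinity (adjusted p = 0.434 and 0.238), and Birc3 by 0.88 ± 0.21 and 0.57 ± 0.21 (0.4 and 0.839). Ebi3 had 0.73 ± 0.24 at high and 0.27 ± 0.24 at low affinity, and Nfkb2 the opposite order, 0.28 ± 0.28 at high and 0.71 ± 0.28 at low affinity. The order for Nfkb2 turned without matched set 3, to 0.49 at high and 0.41 at low affinity, and without DZ_high replicate 3 its value at high affinity was 0.57. These are differences of differences that the interaction tests directly. The interaction ran from -0.437 (Nfkb2) to 0.46 (Ebi3), and none of the 10 was called by limma (lowest unadjusted p = 0.211, adjusted p = 1), nor was any tested gene (0 of 11206, 1.58% with an unadjusted p below 0.05).

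The size of the zone difference also varied with the matched set. In high-affinity cells the median over the 10 genes was 0.67 in set 1, 0.42 in set 2 and 0.18 in set 3, with 10, 9 and 6 genes higher in LZ. Of all tested genes 58.3%, 45.7% and 49.5% were higher in LZ in these sets (medians 0.08, -0.02 and -0.0027). In low-affinity cells the median of the 10 genes was 0.45, 0.42 and 0.27, with 10, 10 and 9 genes higher in LZ. There 47.1%, 55.9% and 47.5% of all tested genes were higher in LZ (medians -0.01, 0.03 and -0.01). Without matched set 3 the median of the 10 genes over both affinities was 0.47.

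**Figure D3:**
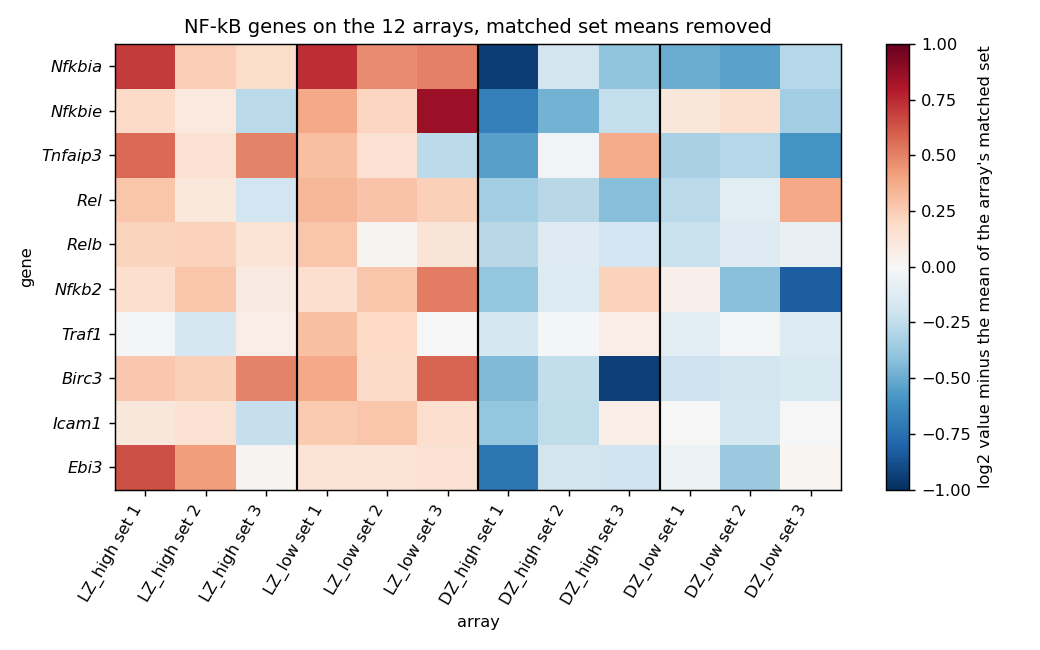
Log2 values of the 10 genes (rows) on the 12 arrays (columns) after the mean of each array's matched set was subtracted; red is above and blue below that mean, on a linear scale from -1 to 1. LZ columns are mainly red and DZ columns mainly blue, with exceptions such as Tnfaip3 in DZ_high and Rel in DZ_low of set 3.

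High- and low-affinity cells were compared within each zone. No member rose or fell by limma, in LZ or in DZ, and no gene of the 11206 did (0% called; 4.16% of genes in LZ and 2.2% in DZ had an unadjusted p below 0.05, of these 10 genes 0 in either zone). In LZ cells 7 of the 10 had a lower mean at high affinity, with a median of -0.17 against -0.0021 over all tested genes, and in DZ cells also 7, with a median of -0.10 against 0.00175. Without matched set 3 the LZ median was -0.07.

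Of the 10 genes Nfkbie had the largest difference by affinity, -0.48 ± 0.28 in LZ cells, -0.44 ± 0.28 in DZ cells and -0.46 ± 0.20 over both zones (unadjusted p = 0.0426 by limma, adjusted p = 0.944; 5.25% of tested genes had an unadjusted p below 0.05 in this mean). Without LZ_low replicate 3, its highest array, the difference was -0.14 in LZ cells and -0.29 over both zones, and without DZ_high replicate 1 it was -0.26 in DZ cells. Without matched set 3 it was -0.15 in LZ cells, where Ebi3 (0.39) and Traf1 (-0.34) then differed more. Its 3 LZ_high arrays all lay below its 3 LZ_low arrays, which 4.49% of tested genes did. Rel was lower at high affinity in DZ by 0.35 on average (-0.35 ± 0.28, adjusted p = 1), and its DZ_high arrays lay below its DZ_low arrays, as did those of 3.86% of tested genes. In LZ cells Nfkbia, Nfkbie, Rel and Icam1 were lower at high affinity in 3 of 3 pairs, against 16.7% of tested genes, and in DZ cells Rel, Relb and Birc3 were, against 12.7%.

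Tnfaip3 went the other way, at 0.34 ± 0.30 in LZ cells and 0.34 ± 0.30 in DZ cells. Its LZ value was higher at high affinity in 3 of 3 pairs, against 15.1% of tested genes, though in set 2 both LZ groups had 6.64. Ebi3 had 0.22 ± 0.24 in LZ and -0.24 ± 0.24 in DZ cells, and Nfkb2 -0.14 ± 0.28 in LZ and 0.30 ± 0.28 in DZ cells. In DZ cells all 10 genes were lower in DZ_high than in DZ_low in matched set 1 (median -0.31), as were most other genes (35.4% were positive). In sets 2 and 3 the DZ medians were -0.00225 and -0.03. Which genes were low varied by set: Rel differed by -0.80 and Birc3 by -0.78 in set 3, and Nfkbie by -0.79 in set 1 and -0.63 in set 2.

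Markers of other cell types were read beside the LZ comparison, and none was called. The 6 tested granulocyte markers had a median of -0.73 for high minus low affinity in LZ (5 of 6 lower). The 4 macrophage markers had -0.38 (3 of 4 lower) and the 3 T cell markers -0.43 (3 of 3 lower). The 3 plasma cell markers had 0.08 (3 of 3 higher) and the 5 stromal markers 0.0042 (3 of 5 higher). The 2 dendritic cell markers (median -0.23) and the 2 erythroid markers (-0.02) were split, 1 higher and 1 lower. The light zone list was at 8.93 to 9.23 in LZ_high and 9.23 to 9.66 in LZ_low cells. Their part in the values of the 10 genes was not tested.

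Ordered by group mean, LZ_low was the highest group for 7 of the 10 genes, and DZ_high the lowest for 7. For all 10, both LZ means were above both DZ means. The margin was small for some: 0.0023 for Traf1 (LZ_high over DZ_high). It was 0.03 for Nfkbie, 0.06 for Rel and 0.07 for Icam1 (LZ_high over DZ_low). The shares of all tested genes with LZ_low highest, with DZ_high lowest, or with both LZ means above both DZ means were not counted. Most neighbouring steps in this order were within the spread: of 30 steps, 2 had a 95% interval that excluded 0. These were LZ_high over DZ_low for Nfkbia (0.82, interval 0.34 to 1.30) and for Birc3 (0.52, interval 0.06 to 0.98), and neither passed after adjustment over all genes. Group means with their SD were 8.01 ± 0.35 (LZ_high), 8.20 ± 0.22 (LZ_low), 7.12 ± 0.31 (DZ_high) and 7.19 ± 0.16 (DZ_low) for Nfkbia, and 9.25 ± 0.06, 9.30 ± 0.15, 8.38 ± 0.47 and 8.74 ± 0.11 in the same order for Birc3 (n = 3 arrays each). The SD within a group was lowest for Nfkbie in DZ_low (0.030) and highest for the same gene in LZ_low (0.59).

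Correlations between the 10 genes were read over the 12 arrays, with each array set against its matched set's mean. This leaves in the zone difference, which was positive for all 10. The correlation between 2 of the genes had a median of 0.60 over the 45 pairs, from 0.07 (Tnfaip3 with Rel) to 0.92 (Nfkbia with Relb), and all 45 were above 0. With the group means removed as well, the median was 0.22, with 32 of 45 above 0 and a range from -0.755 to 0.906. These correlations are a description over 12 arrays that share sets and groups, and those between other genes are not given for comparison.

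The genes whose set-centred values followed the mean of the 10 most closely were Prkca (r = 0.98 over 12 arrays, 0.881 without centring), which encodes protein kinase C alpha, Cd36 (0.97, 0.908), a scavenger receptor gene, Ubxn11 (0.97, 0.899) and S1pr3 (0.964, 0.921), a sphingosine phosphate receptor gene. Next came Cd83 (0.957, 0.942), an activation marker gene that NF-kB induces, Rabgef1 (0.956, 0.905), which encodes an exchange factor for Rab5, Zfp362 (0.954, 0.83) and Napsa (0.953, 0.767). All had a positive zone difference, from 0.59 (Zfp362) to 1.60 (Cd83). S1pr3 (1.21, adjusted p = 0.029), Cd83 (adjusted p = 0.00069) and Rabgef1 (0.75, adjusted p = 0.034) were called by limma. Since these genes were picked for following a mean that itself differed by zone, their zone differences are a description.

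The rest of the pathway was read from 6 lists of genes outside the 10 (79 genes in all). The nearest to them were the other subunits and IkB proteins, where 5 of 6 could be tested: all 5 were positive in LZ minus DZ (median 0.34) and 0 were called, against 0.419% of all genes; 2 had an unadjusted p below 0.05, against 7.06%. Nfkbid, which encodes the nuclear regulator IkB-NS, had 0.52 ± 0.14 (adjusted p = 0.203), and Bcl3, another nuclear IkB family gene, 0.52 ± 0.20 (0.561). The subunit gene Rela had 0.34 (adjusted p = 0.999).

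Upstream of the inhibitors, the lists were nearer to 0. The IkB kinase complex and upstream kinases had a median of 0.07 (7 of 10 tested positive, 0 called, 2 with an unadjusted p below 0.05), with Ikbke, a kinase related to the IkB kinases, at 0.40 ± 0.13 (adjusted p = 0.372) and Map3k8, which encodes the kinase TPL2, at 0.43 ± 0.15 (0.418). The antigen receptor arm had a median of -0.02 (4 of 9 positive, 0 called, 1 with an unadjusted p below 0.05). Prkcb, the protein kinase C gene that links the receptor to the IkB kinase, had 0.48 ± 0.12 (adjusted p = 0.152) and Syk, the kinase next to the receptor, -0.22 ± 0.19 (0.999). Among CD40, BAFF receptor and TRAF genes the median was 0.09 (6 of 9 positive, 0 called, 3 with an unadjusted p below 0.05). Cd40, the receptor for T cell help, had 0.55 ± 0.15 (adjusted p = 0.231) and Tnfrsf13b, which encodes the BAFF and APRIL receptor TACI, 0.30 ± 0.12 (0.607), while Traf5, an adaptor gene, was at -0.36 ± 0.15 (0.607). Ubiquitin ligases and deubiquitinases had a median of 0.02 (7 of 12 positive, 0 called, 1 with an unadjusted p below 0.05), with Tnip2, which encodes an A20-binding protein, at 0.53 ± 0.18 (adjusted p = 0.428) and the ubiquitin ligase gene Itch at -0.15 ± 0.14 (0.999).

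Of 30 other known targets 22 could be tested, and their median was 0.31, with 16 positive. Over all 29 with a probe set of their own, tested or not, the median was 0.21. Of the 22, 9 had an unadjusted p below 0.05 by limma (including Map3k8, which is also in the kinase list), against 7.06% of all tested genes. In LZ cells 3 of them rose, where 0.232% of all tested genes were called higher: Cd83 by 1.60 ± 0.14, Slamf1, a receptor gene of lymphocyte contacts, by 1.06 ± 0.15 (adjusted p = 0.0213) and Batf, a transcription factor gene, by 0.81 ± 0.14 (adjusted p = 0.0365). Tnf, the cytokine gene, was at 0.80 (adjusted p = 0.615) and was called with the replicate block (0.0223). Members that did not pass included Irf4 (0.74, adjusted p = 0.25), Myc (0.71, 0.501) and Bcl2l1 (0.70, 0.213), which encode a transcription factor of plasma cell fate, a growth regulator and the survival protein BCL-XL. Of the 22, 6 were lower in LZ, among them Pim1 (-0.38, limma adjusted p = 0.847) and Gadd45b (-0.37, 0.999).

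**Figure D4:**
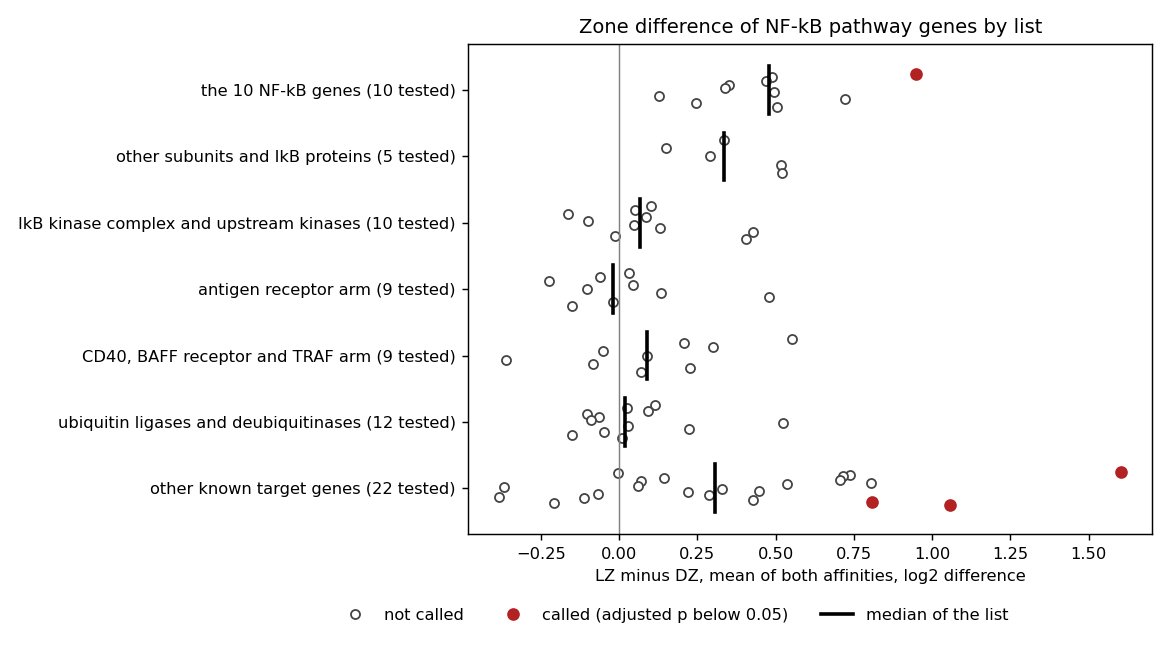
LZ minus DZ difference (log2, mean of both affinities) of each tested gene, for the 10 genes and the 6 other lists of the pathway; the bar is the median of the list and filled points were called by limma. The 10 genes have a median of 0.48, the other subunits and IkB proteins 0.34 and the other targets 0.31, while the upstream lists have medians between -0.02 and 0.09.

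By affinity within LZ cells, 0 genes of these lists were called by limma, and an unadjusted p below 0.05 was reached by 2 in the antigen receptor arm, 1 among the CD40, BAFF receptor and TRAF genes and 1 among the other targets, against 4.16% of all tested genes. The upstream lists were lower at high affinity for most members: 9 of 9 in the antigen receptor arm (median -0.34), 9 of 10 among the kinases (-0.21), 8 of 9 among the CD40, BAFF receptor and TRAF genes (-0.12) and 11 of 12 among the ubiquitin enzymes (-0.14), where all tested genes had a median of -0.0021. Marker lists were lower too: 8 of 9 markers of B and germinal centre B cells (median -0.16, list means of 10.07 to 10.09 in LZ_high and 10.21 to 10.29 in LZ_low cells) and 5 of 5 light zone markers (median -0.28). The B cell markers share Cd79a and Cd79b with the antigen receptor arm and Fas with the other targets. The light zone markers share Cd83 with the other targets. The part of the marker lists in the pathway lists' values was not tested. Syk was at -0.68 ± 0.26 (adjusted p = 0.999), Prkcb at -0.40 ± 0.16 (0.999) and Traf5, a TRAF adaptor gene, at -0.60 ± 0.21 (0.999). Ikbkg, which encodes the regulatory subunit of the IkB kinase, had -0.34 ± 0.16 and Tab1, which encodes a partner of the kinase TAK1, -0.30 ± 0.18. Tnfrsf13b had -0.27 ± 0.17, Tnip2 -0.52 ± 0.26 and Sharpin, a gene of the linear ubiquitin ligase, -0.39 ± 0.21. The other subunits and IkB proteins had a median of -0.07 (3 of 5 lower), with Nfkbid at -0.29 ± 0.19 and the IkB-beta gene Nfkbib at 0.37 ± 0.39. The other targets were split, 11 higher and 11 lower (median -0.02), with Batf at 0.56 ± 0.20 and Irf4 at 0.56 ± 0.29 in the positive direction (adjusted p = 0.999 each).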

How the data were processed

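RNA of sorted germinal centre B cells was amplified, biotin-labelled and hybridized to 12 one-colour arrays. The authors' deposited values are log2 expression values per probe set, made with RMA per the submitters' processing notes, which also name the build mm8; the log base was read from the range of the values (1.9852 to 13.7446). Of 28853 probe sets 21789 had 1 symbol. Genes with at least 3 of 12 arrays at or above the array median were tested (11206; 8732 were too dim). The limma tests (version 3.58.1, R 4.3.3; two-sided, lmFit on group means, then eBayes) were adjusted by Benjamini-Hochberg over all tested genes.

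The members, lists and tests were chosen with earlier results of these data known. All 10 members are named. Of each pathway list, called genes and the 2 smallest p-values per contrast are named. Rela, Tnf, Irf4, Myc, Bcl2l1, Pim1, Gadd45b, Egr1, Jchain, Cd68 and Atf3 were named after their values were seen. Similar genes are the 8 with the highest correlation. Matched sets come from a shared, date-like suffix of the descriptions, whose meaning the labels do not state: with group means removed, 17 of 18 same-set pairs correlated above 0.1 (median 0.41, lowest -0.071). The set as replicate block, filters, scalings, array weights and leaving out arrays were alternatives. The number of arrays limits precision.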

Additional observations from a re-analysis of the deposited data

How the results depend on the processing

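Among the 10 genes, 1 was called in LZ minus DZ. The count was 2 with the replicate block, 2 with the set as a random block and 2 with array weights (Nfkbia and Birc3 each time), 0 with each array centred on its median, and 0 to 1 without 1 array; over all genes these settings called 135, 110, 327 and 28 against 47, and 12 at the fewest without 1 array. Birc3 had an adjusted p of 0.0405, 0.0278 and 0.0138 in the first 3. At high affinity, array weights called 2 (Birc3, 0.61, adjusted p = 0.042; Ebi3, 0.70, adjusted p = 0.0402); their estimation stopped before it converged. The replicate block changed no other call of the 10 genes. The median for high minus low affinity in LZ moved to -0.0727 without matched set 3, with or without the block, and ran from -0.2095 to -0.07123 without 1 array. The zone median lay between 0.4101 and 0.4897 over the settings that kept all arrays or left out matched set 3, and between 0.4026 (without DZ_high replicate 1) and 0.5621 (without DZ_high replicate 3) without 1 array.

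Signs that turned belonged to uncalled differences. At high affinity Traf1 turned to -0.02282 with quantile normalization, -0.1522 with array weights and ran from -0.07755 to 0.1218 without 1 array. By affinity in LZ, Tnfaip3 turned to -0.1549 with array weights, and without 1 array Rel ran from -0.4517 to 0.07618, Birc3 from -0.1298 to 0.01008, Relb from -0.06622 to 0.1212 and Nfkb2 from -0.2519 to 0.0804. By affinity in DZ, array weights gave Nfkb2 -0.02753, Nfkbia 0.01494 and Traf1 -0.0504; without matched set 3, with or without the block, Nfkb2 had -0.08015 and Traf1 -0.036; and without 1 array Ebi3 ran from -0.4366 to 0.001767, Nfkbia from -0.1921 to 0.1037 and Relb from -0.1149 to 0.02593. The cause was not tested.

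The blocked fit without set 3 was chosen after seeing the data. With the stricter filter 6 of the 10 genes were tested. Fits on only the groups compared gave no value for means over both zones or affinities.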
